A study of Mus musculus with 2 samples.

Results

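The genes described here encode components of the Akt, mTOR and FoxO pathway, and their transcripts were compared between M210B4 cells treated with a CD84-activating antibody (anti-CD84) and M210B4 cells treated with an IgG1 isotype antibody. The members are a list of 36 symbols, which was drawn up with earlier results of these data known although the rule sets no measured value for membership. Each gene was represented by its brightest probe set with a single gene symbol, as judged by the mean over both arrays. Of the 36 symbols, 34 were measured, out of 22180 genes represented in this way. Rps6kb1 and Gsk3a had no probe set assigned to them alone and were not analysed here. M210B4 is an established mouse bone marrow stromal cell line. Both cultures were kept in medium with reduced serum, carried no genetic change named in the labels and were exposed to antibody for 24 h, which limits the comparison to 1 line and 1 time. A single array of the Affymetrix Mouse Gene 2.0 ST type was run per treatment, so no difference has a standard error, a p-value or a replicate check, and the number of arrays limits the precision. In these bulk samples, fewer cells of a type and less RNA per cell cannot be told apart.

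Insulin, IGF and other growth factor receptors recruit IRS adaptors and class I phosphoinositide 3-kinase (PI3K), whose lipid product brings Akt to the membrane, where PDK1 and the mTORC2 complex phosphorylate it. Akt then phosphorylates TSC2, PRAS40 and FoxO transcription factors. Loss of TSC activity frees the small GTPase Rheb to switch on mTORC1, which amino acids bring to the lysosome through the Rag GTPases, and active mTORC1 phosphorylates S6 kinases and 4E-BPs to raise protein synthesis. FoxO proteins that Akt has phosphorylated leave the nucleus, and much of this control is by phosphorylation, which an expression array does not measure. In marrow stroma the pathway is known for linking growth factor and nutrient supply to growth and survival.

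The labelled cell type was checked first. Of 11 measured stromal markers, 7 exceeded the detection level on each array, among them Col1a1 (log2 12.52 after anti-CD84 and 12.53 after IgG1), Pdgfrb (11.92 and 11.45) and Vcam1. Of these 7 markers 2 differed by 1.5-fold or more, Cxcl12, at 10.29 after anti-CD84 and 9.19 after IgG1, or 2.15-fold higher, and Pdgfra, at 10.21 and 9.29, or 1.89-fold higher. Lepr, Nt5e and Eng were below it on both, and Thy1 was above it after IgG1 alone. That level, 4.84, was set at the 95th percentile of the values of 1394 receptor genes of smell and pheromone sensing, since stromal cells are not known to express these. Of 10 haematopoietic markers 9 were below it on both arrays, including Ptprc (3.90 and 3.86), and Csf1r stood at 4.86 after anti-CD84 and 4.14 after IgG1. Of 6 endothelial markers 3 were below it on both arrays, Emcn was at 5.19 on each, and Pecam1 (4.32 after anti-CD84 and 4.99 after IgG1) and Cdh5 (4.61 and 5.56) were above it after IgG1 alone. The part of such cells in the results below was not tested.

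Of the 34 measured members, 32 exceeded the detection level on each array, and Inpp5d and Rragd were below it on both. A gene was counted as higher or lower when the anti-CD84 and IgG1 values differed by 1.5-fold or more. Mtor, Pik3r3, Irs1 and Foxo3 were higher after anti-CD84, Foxo4 was lower, and the other 27 detected members lay within 1.5-fold. The 4 higher members are 12.5% of those detected, against 10.7% of all 13284 detected genes. The single lower member is 3.13%, against 6.4% of all detected genes, so neither share stands far from the background. Among the 11761 genes above the detection level on both arrays, as these members are, 9.57% were higher and 3.89% lower. With the differences centred on their median, 3 members were higher and 1 lower, against 7.71% and 8.49% of all detected genes. With a smooth trend of difference with level (loess) removed, 1 member was higher and 1 lower, against 8.43% and 7.36% of all detected genes. After quantile normalization of the arrays 2 were higher and 1 lower, against 8.21% and 7.77%. The whole set of detected genes split into 1427 higher and 850 lower, or 1024 and 1128 after centring.

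**Figure D1:**
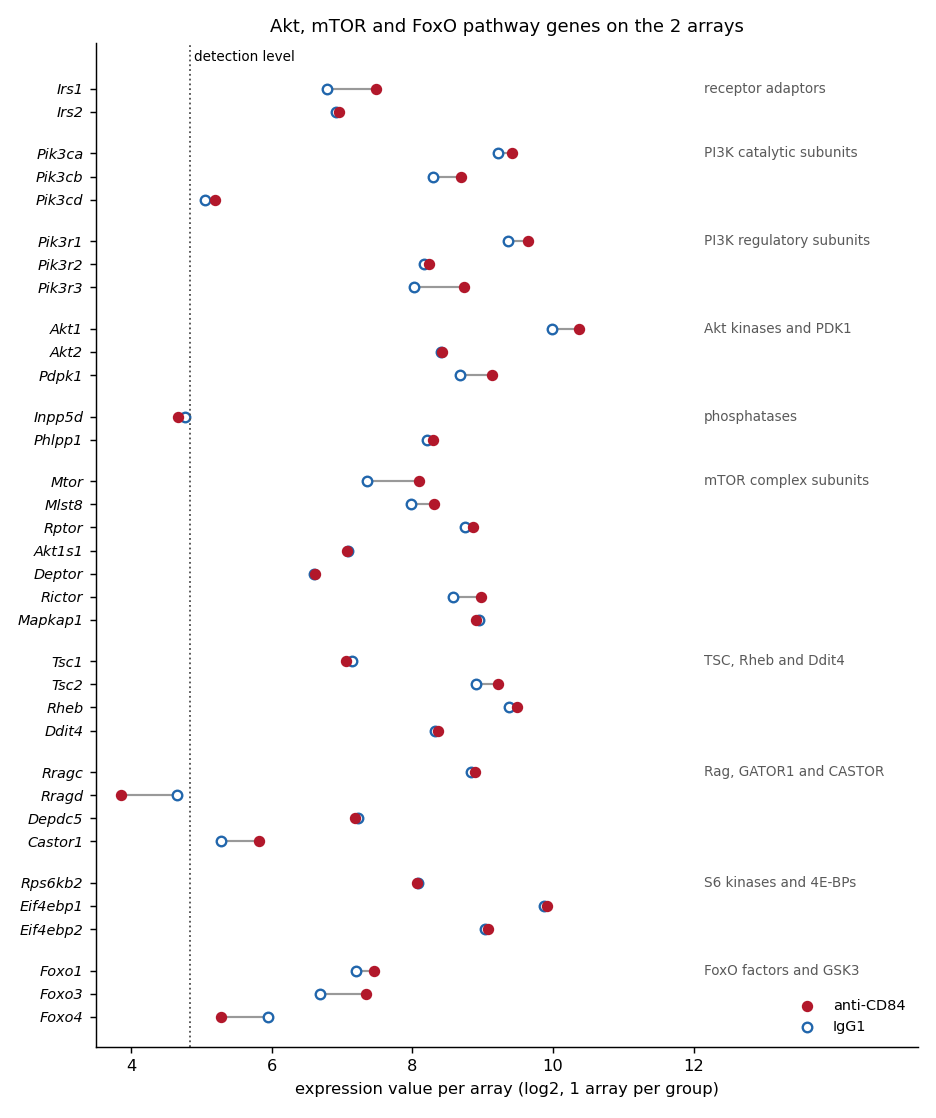
Expression values (log2, horizontal axis) of the 34 measured members on the anti-CD84 array (filled red) and the IgG1 array (open blue), grouped by role, with the detection level dotted. The longest joining lines above the detection level belong to Mtor, Pik3r3, Irs1, Foxo4, Foxo3 and Castor1, and Inpp5d and Rragd lie left of the detection level on both arrays.

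Mtor, the kinase at the centre of both mTOR complexes (Entrez 56717, probe set 17421600), was at log2 8.10 after anti-CD84 and 7.36 after IgG1. The difference of 0.74, or 1.67-fold, was the furthest from 0 among the detected members in the values as deposited. Foxo4 was further from 0 than Mtor under median centring (-0.75 against 0.65), with the loess curve removed (-0.69 against 0.61) and under quantile normalization (-0.71 against 0.64). Among the 4542 detected genes with mean levels of 7 to 9, 4.82% had a difference as high. Pik3r3, a regulatory subunit of PI3K (Entrez 18710, probe set 17417407), was at 8.73 after anti-CD84 and 8.02 after IgG1, which is 1.63-fold higher. Differences as high were found for 5.77% of the genes of that level. Irs1, the adaptor that couples the insulin and IGF1 receptors to PI3K (Entrez 16367, probe set 17224878), was at 7.48 after anti-CD84 and 6.79 after IgG1, or 1.61-fold higher, a size reached by 6.08% of such genes. Its further probe set did not reach the detection level on either array (4.06 and 3.85), and the mean of the pair differed by 0.45. Foxo3, a FoxO transcription factor (Entrez 56484, probe set 17240529), was at 7.35 after anti-CD84 and 6.69 after IgG1, or 1.58-fold higher. Foxo3 was the closest of the higher members to the threshold, and its difference of 0.66 became 0.57 with the differences centred on the median. Foxo4, the X-linked FoxO factor (Entrez 54601, probe set 17536657), ran the other way, at 5.28 after anti-CD84 and 5.94 after IgG1, or 1.58-fold lower. Among the 5057 detected genes with mean levels of 5 to 7, 5.77% were as low. Castor1, with a difference of 0.55, lay just inside the 1.5-fold limit of 0.58, and Pdpk1 followed with 0.47.

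The higher members all had mean levels of 7 to 9, a range that holds 20 of the detected members and in which 9.82% of all detected genes were higher. None of the 7 members with means of 9 to 11 was higher or lower, in a range where 5.32% of genes were higher and 1.34% lower. The spread of differences over all genes narrowed from an SD of 0.48 at levels of 5 to 7, which hold 5 members, through 0.37 at 7 to 9, to 0.31 at 9 to 11.

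**Figure D2:**
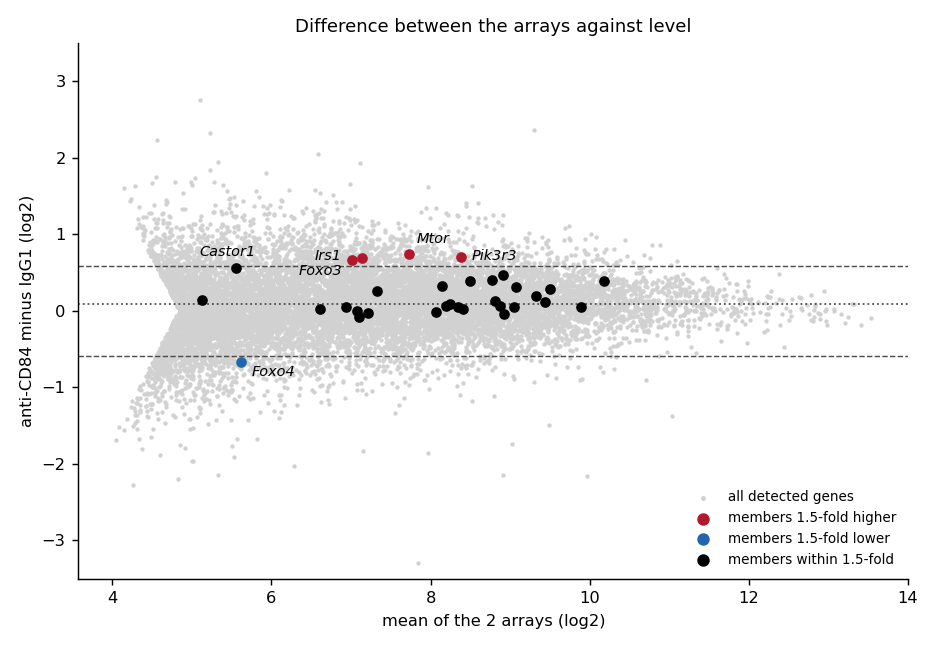
Difference between the arrays (anti-CD84 minus IgG1, log2) against the mean of the 2 arrays (log2) for all detected genes (grey) and the members (coloured by call). Dashed lines mark 1.5-fold and the dotted line the median of all detected genes, 0.09. Mtor, Pik3r3, Irs1 and Foxo3 lie above the upper dashed line and Foxo4 below the lower one, all inside the cloud of other genes.

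The promoters of the 4 higher members are shown because these genes carry the higher calls. Each is the 250 bases before a RefSeq transcription start on GRCm38.p6, written 5′ to 3′ on the gene's strand. Capitals mark GC boxes (GGGCGG or its reverse complement CCGCCC, the letters bound by Sp1 factors) and the E-box CACGTG. Pik3r3 has 3 annotated starts, of which the most upstream is printed.
Mtor, chr4:148448332-148448581, plus strand: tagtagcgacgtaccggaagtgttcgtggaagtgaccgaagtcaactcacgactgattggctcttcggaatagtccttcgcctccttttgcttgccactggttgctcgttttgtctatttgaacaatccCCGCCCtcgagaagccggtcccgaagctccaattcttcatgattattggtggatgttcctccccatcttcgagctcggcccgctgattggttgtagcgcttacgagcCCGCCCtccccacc
Pik3r3, chr4:116221166-116221415, plus strand: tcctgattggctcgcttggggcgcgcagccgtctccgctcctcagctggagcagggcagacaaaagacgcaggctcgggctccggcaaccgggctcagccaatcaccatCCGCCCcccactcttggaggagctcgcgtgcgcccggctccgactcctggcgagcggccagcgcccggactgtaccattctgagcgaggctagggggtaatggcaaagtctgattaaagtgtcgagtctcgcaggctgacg
Irs1, chr1:82291440-82291689, minus strand: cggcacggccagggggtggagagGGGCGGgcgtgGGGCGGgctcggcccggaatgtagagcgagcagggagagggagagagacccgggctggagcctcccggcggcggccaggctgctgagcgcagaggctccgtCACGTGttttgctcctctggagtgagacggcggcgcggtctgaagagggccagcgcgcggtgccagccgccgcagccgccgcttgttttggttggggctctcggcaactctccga
Foxo3, chr10:42276696-42276945, minus strand: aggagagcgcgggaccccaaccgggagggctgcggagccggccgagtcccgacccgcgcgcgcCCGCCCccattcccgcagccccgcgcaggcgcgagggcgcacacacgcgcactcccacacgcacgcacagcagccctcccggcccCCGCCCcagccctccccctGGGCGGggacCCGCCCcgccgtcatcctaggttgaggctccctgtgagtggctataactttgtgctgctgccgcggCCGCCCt
These windows hold 2 GC boxes for Mtor, 1 for Pik3r3, 2 for Irs1 beside its E-box, and 5 for Foxo3. Their G and C content is 54.4% for Mtor, 65.6% for Pik3r3, 72.4% for Irs1 and 76.4% for Foxo3, against a median of 52.4% over 32851 promoter windows of this length. A GC box on either strand occurred in 29 of the 43 windows of the 32 members found in the promoter table, and in 32.7% of all windows. The median content of the member windows was 59.6%, and windows of neighbouring starts can overlap, so they are not independent. The E-box, which reads the same on both strands, occurred in windows of Irs1, Irs2, Rheb and Rragc, 4 of 43, and in 6.02% of all windows. The FoxO element GTAAACA, or TGTTTAC on the other strand, occurred in 3 member windows, of Akt1 and Mapkap1, and in 3.17% of all windows. It is not among the letters of the 4 printed windows. The cAMP response element TGACGTCA occurred in 0 of the 43 member windows and in 1.55% of all windows. None of these motifs contains another. A match describes letters only. Deptor, Eif4ebp1, Foxo4 and Rps6kb2 were not matched in that table.

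Upstream of Akt, 2 of the 8 adaptor and PI3K members were higher, where 10.7% of all detected genes were, and their closest relatives were within 1.5-fold. With the loess curve removed 0 of the 8 were higher, with Irs1 at 0.56 and Pik3r3 at 0.583, just inside the 1.5-fold limit of 0.585. Under quantile normalization Pik3r3 alone was higher, and Irs1, at 0.584, was just inside that limit. Irs2, the other main adaptor of the insulin and IGF1 receptors, was at 6.96 after anti-CD84 and 6.92 after IgG1, so its difference of 0.04 was 0.65 below that of Irs1. Among the regulatory subunits that stabilise and recruit the catalytic ones, Pik3r1 was at 9.64 after anti-CD84 and 9.36 after IgG1. Pik3r2 was at 8.23 and 8.17. The difference of Pik3r3 exceeded that of Pik3r1 by 0.42 and that of Pik3r2 by 0.64. The catalytic subunits had positive differences, all within 1.5-fold and all still positive under median centring, the loess curve and quantile normalization. Pik3cb, the beta isoform, was at 8.69 after anti-CD84 and 8.30 after IgG1, a difference of 0.39. Pik3ca, the alpha isoform that serves most growth factor receptors, was at 9.42 and 9.22. Pik3cd, the isoform best known from leukocytes, was near the detection level at 5.20 and 5.05.

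Of the kinases that carry the signal on, Akt1 and Pdpk1 had the larger differences, both within 1.5-fold. Pdpk1, which encodes PDK1, the kinase of the Akt activation loop, was at 9.14 after anti-CD84 and 8.67 after IgG1, or 1.38-fold apart. Akt1, the broadly expressed Akt isoform, was at 10.38 after anti-CD84 and 9.99 after IgG1, a difference of 0.39. Akt2, the isoform linked to glucose uptake, was at 8.42 and 8.40, and its difference of 0.02 was 0.36 below that of Akt1. The sign for Akt2 turned negative under median centring, the loess curve and quantile normalization. Of the phosphatases that oppose them, Phlpp1, which removes the hydrophobic motif phosphate of Akt, was at 8.30 after anti-CD84 and 8.20 after IgG1. Inpp5d encodes SHIP1, the lipid phosphatase of blood cells. It did not reach the detection level on either array (4.66 after anti-CD84 and 4.76 after IgG1).

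The 7 mTOR complex subunits split between 3 with differences over 0.3 and 4 between -0.05 and 0.12. The 3 were Mtor, Rictor and Mlst8. Rictor, the defining subunit of mTORC2, was at 8.98 after anti-CD84 and 8.58 after IgG1, a difference of 0.40. Mlst8, shared by both complexes, was at 8.30 and 7.98, a difference of 0.32. Rptor, the subunit of mTORC1 that binds its substrates, was at 8.87 after anti-CD84 and 8.74 after IgG1. Its difference of 0.12 was 0.61 below that of Mtor and 0.28 below that of Rictor. Mapkap1, which encodes the mTORC2 subunit SIN1, was at 8.90 and 8.95. Of the inhibitory subunits, Akt1s1, which encodes PRAS40, was at 7.07 after anti-CD84 and 7.08 after IgG1. Deptor was at 6.62 and 6.60, and its further probe set did not reach the detection level on either array. The Mtor difference was past 1.5-fold under all 3 rescalings (median centring, the loess curve and quantile normalization), at 0.61 to 0.65.

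The inputs that gate mTORC1 had 0 of 7 detected members past 1.5-fold, where 10.7% of all detected genes were higher and 6.4% lower, and so few genes do not stand apart from these shares. Tsc2, the GTPase-activating subunit of the TSC complex, was at 9.22 after anti-CD84 and 8.91 after IgG1, a difference of 0.31. Its partner Tsc1 was at 7.06 and 7.14, which puts it 0.39 below Tsc2 in difference. Rheb, the GTPase that TSC restrains, was at 9.49 after anti-CD84 and 9.38 after IgG1. Ddit4, the stress-induced inhibitor REDD1, was at 8.36 and 8.32. In the amino acid branch, Castor1, an arginine sensor that holds mTORC1 off when arginine is short, was at 5.83 after anti-CD84 and 5.27 after IgG1, or 1.47-fold apart. A difference as high was found for 14.4% of genes of its level. Depdc5, a subunit of the Rag inhibitor GATOR1, was at 7.19 after anti-CD84 and 7.23 after IgG1. Rragc, the Rag GTPase that pairs with RagA or RagB, was at 8.90 and 8.84. Its paralogue Rragd reached the detection level on neither array, at 3.86 after anti-CD84 and 4.65 after IgG1, so no fold is given.

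The 3 measured members among the S6 kinases and 4E-BPs had differences that lay close together. Eif4ebp1 and Eif4ebp2 encode repressors of cap-dependent translation. Eif4ebp1 was at 9.92 after anti-CD84 and 9.87 after IgG1, and Eif4ebp2 at 9.08 and 9.03, so their differences were 0.05 and 0.04. Rps6kb2, which encodes S6 kinase 2, was at 8.06 after anti-CD84 and 8.08 after IgG1. All of these signs were negative under median centring, the loess curve and quantile normalization. Among the FoxO factors the measured genes ran in both directions. Foxo1, which shares with Foxo3 the role of Akt-controlled activator of stress and atrophy genes, was at 7.46 after anti-CD84 and 7.19 after IgG1, a difference of 0.26, and its further probe set differed by 0.36. The Foxo3 difference exceeded that of Foxo1 by 0.39 and that of Foxo4 by 1.32.

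**Figure D3:**
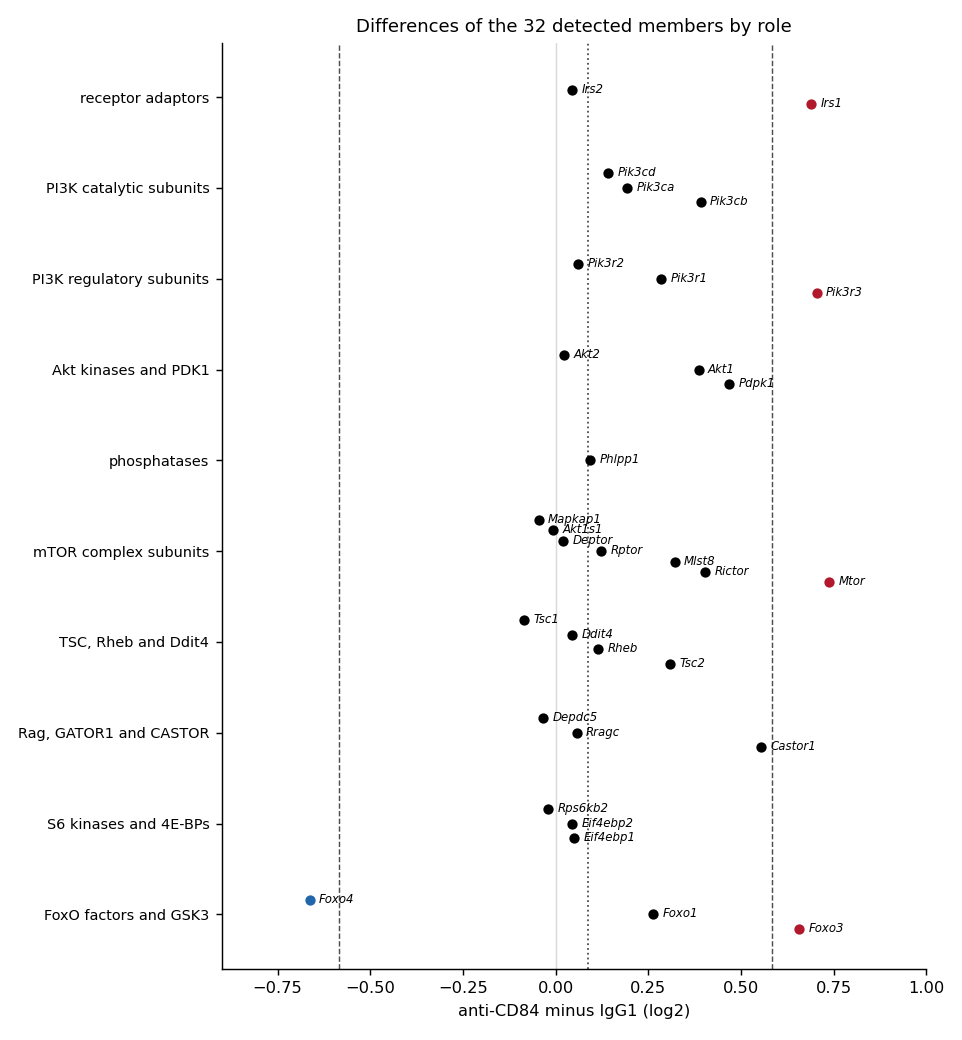
Differences (anti-CD84 minus IgG1, log2) of the 32 detected members by role, with members 1.5-fold higher in red and the lower one in blue. Dashed lines mark 1.5-fold and the dotted line the median of all detected genes, 0.09. S6 kinase and 4E-BP genes lie between -0.02 and 0.05, while the FoxO factors run from -0.66 to 0.66.

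As a list, the detected members had a median difference of 0.12, against 0.09 over all detected genes. Of them 26 had a positive difference, 81.2%, against 59.1% of all detected genes. Measured from the median of all genes, 18 lay above and 14 below, and with the loess curve removed 17 were positive and 15 negative. Of the 32 members, 14 were within 0.1 of 0, or 43.8%, against 19.9% of all detected genes. At mean levels of 7 to 9 this held for 10 of 20 members and 21.8% of all genes, and at 9 to 11 for 2 of 7 members and 26.2%. Another 9 members lay between 0.25 and the 1.5-fold threshold on the higher side, 28.1% against 22.4% of all detected genes, and 0 on the lower side, against 13.9%. These differences are not centred, and the shares of all genes are not matched for level. The lower quartile of differences was -0.49 at mean levels under 5, which hold 0 detected members, and -0.11 at 7 to 9.

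Other genes of the same pathway, a separate list of 74 symbols of which 68 were measured, had 9 of 62 detected genes higher and 2 lower, 14.5% and 3.23%, with a median of 0.20. These shares lie near the 10.7% and 6.4% of all detected genes. With the differences centred on their median, 7 were higher and 3 lower, against 7.71% and 8.49% of all detected genes. In this list 7 detected genes belong to the TSC complex and its stress and energy inputs. Of these 7, 4 were higher, 57.1% against 10.7% of all detected genes, and the other 3 ran from -0.29 to 0.44. This was the highest share among the role groups of a list drawn up with earlier results of these data known. Elsewhere in it 0 of 2 receptors, 1 of 11 PI3K and adaptor genes and 0 of 4 lipid phosphatases were higher. The same held for 0 of 4 Akt and related kinases, 1 of 5 mTORC2 and mTOR assembly genes, 3 of 20 amino acid sensing genes and 0 of 9 outputs. Under each of the 3 rescalings 3 of the 7 were higher, against 7.71% to 8.43% of all detected genes. Tbc1d7, the further subunit of the TSC complex, was at 7.94 after anti-CD84 and 6.92 after IgG1, or 2.03-fold higher, whereas Tsc1 and Tsc2 were within 1.5-fold. Prkaa2, a catalytic subunit of the energy sensor AMPK, was at 6.91 after anti-CD84 and 5.92 after IgG1. The sestrins Sesn1 and Sesn3, which restrain mTORC1 through GATOR2, were 1.78-fold and 1.56-fold higher. In the amino acid branch Slc38a9, a lysosomal arginine transporter and sensor, was at 7.36 after anti-CD84 and 6.19 after IgG1, or 2.25-fold higher. Fnip1, the partner of folliculin, was 1.64-fold higher and Lamtor1, which anchors the Rag GTPases on the lysosome, 1.57-fold higher. Telo2, part of the complex that assembles mTOR and related kinases, was at 7.06 after anti-CD84 and 5.99 after IgG1, or 2.10-fold higher. Grb10, an adaptor that dampens insulin receptor signalling, was 1.73-fold higher. The FoxO family gene Foxo6 was 1.66-fold lower, at 4.98 after anti-CD84 and 5.71 after IgG1. Prr5l, a partner of mTORC2, was counted as lower from its values of 4.37 after anti-CD84 and 4.97 after IgG1, but the first is below the detection level, so it was at least 1.09-fold lower and leaves the count when values are floored at that level. Within 1.5-fold, Flcn differed by 0.53, Phlpp2 by 0.52, Pik3c2a by 0.51 and Pik3r6 by -0.55.

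Genes known as FoxO targets were listed to set beside Foxo3 and Foxo4. The list was drawn up with earlier results of these data known, so its shares are a description only. Of 33 symbols 32 were measured and 25 detected, of which 8 were higher, 32%, and 1 lower, 4%, with a median difference of 0.37. The background shares are again 10.7% and 6.4%. With the differences centred on their median 5 of the 25 were higher, against 7.71% of all detected genes, and 6 were with the loess curve removed or under quantile normalization, against 8.43% and 8.21%. The higher genes were Cat, the peroxisomal catalase (10.21 after anti-CD84 and 9.27 after IgG1), Bcl2l11 and Bbc3, which encode the death effectors BIM and PUMA, the transcriptional repressor Bcl6, the cell cycle inhibitors Cdkn1a and Cdkn1b, Sesn3, and the autophagy gene Map1lc3b. Bcl6 was at 7.55 after anti-CD84 and 6.78 after IgG1, or 1.71-fold higher, and Cdkn1b, which encodes p27, at 8.83 and 8.11, or 1.65-fold higher. Bbc3 was at 5.66 after anti-CD84 and 5.04 after IgG1. Map1lc3b, at 11.32 and 10.73, was 1.51-fold higher and so close to the threshold. Under median centring Bbc3, Sesn3 and Map1lc3b fell within 1.5-fold. Trim63, a ubiquitin ligase of muscle atrophy, was at 4.61 after anti-CD84, below the detection level, against 5.66 after IgG1, and so at least 1.76-fold lower. Txnip (0.57), Atg12 (0.53), Prdx3 (0.50) and Ulk2 (0.44) lay within 1.5-fold. Negative differences were found for 5 of the 25 genes, of which all but Trim63 lay within 1.5-fold. Several of these genes also answer to other regulators, p53 among them for Cdkn1a and Bbc3, and the list shares Insr, Pik3ip1 and Sesn3 with the list of other pathway genes. Whether FoxO proteins acted on any of them was not tested.

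**Figure D4:**
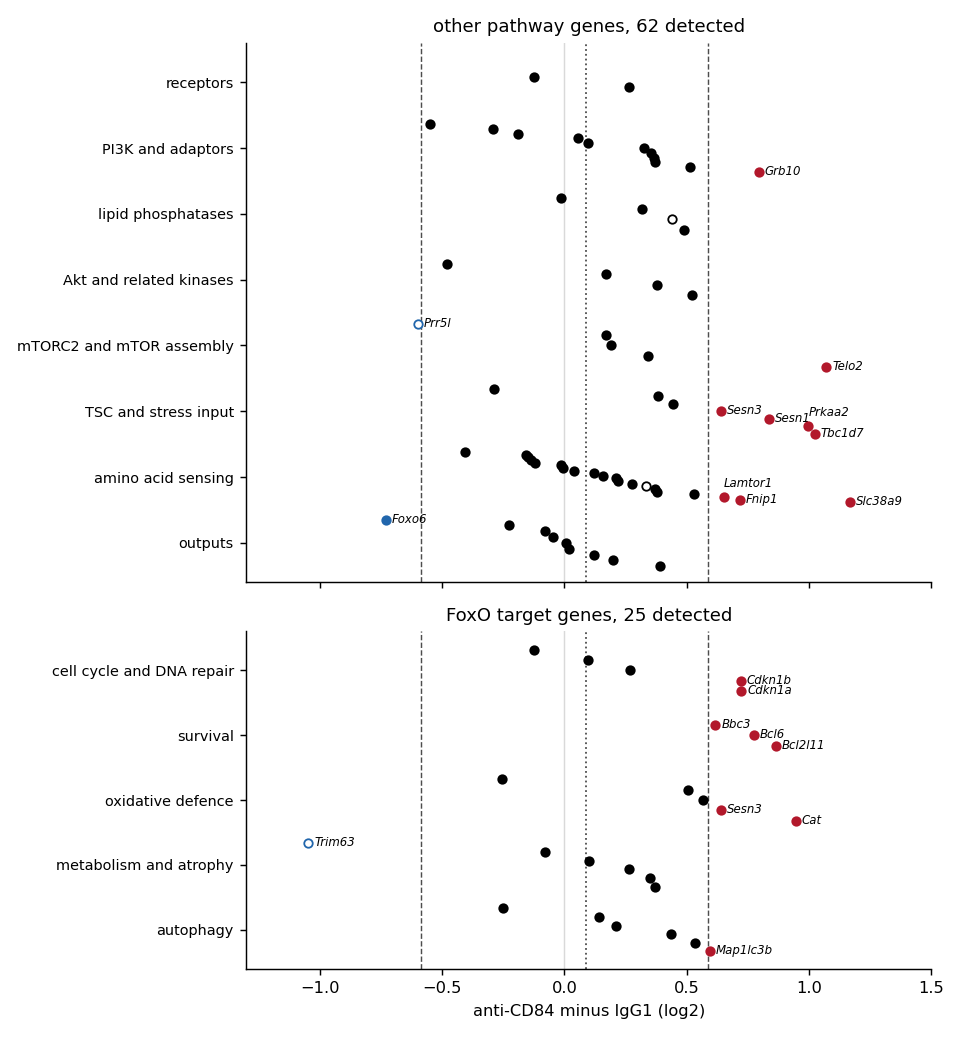
Differences (anti-CD84 minus IgG1, log2) of the detected genes of the 2 further lists by role, with genes 1.5-fold higher in red, lower in blue, and open symbols for genes above the detection level on 1 array. Dashed lines mark 1.5-fold and the dotted line the median of all detected genes, 0.09. Slc38a9, Telo2 and Tbc1d7 lie furthest to the right in the upper panel and Cat in the lower one.

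**Figure D5:**
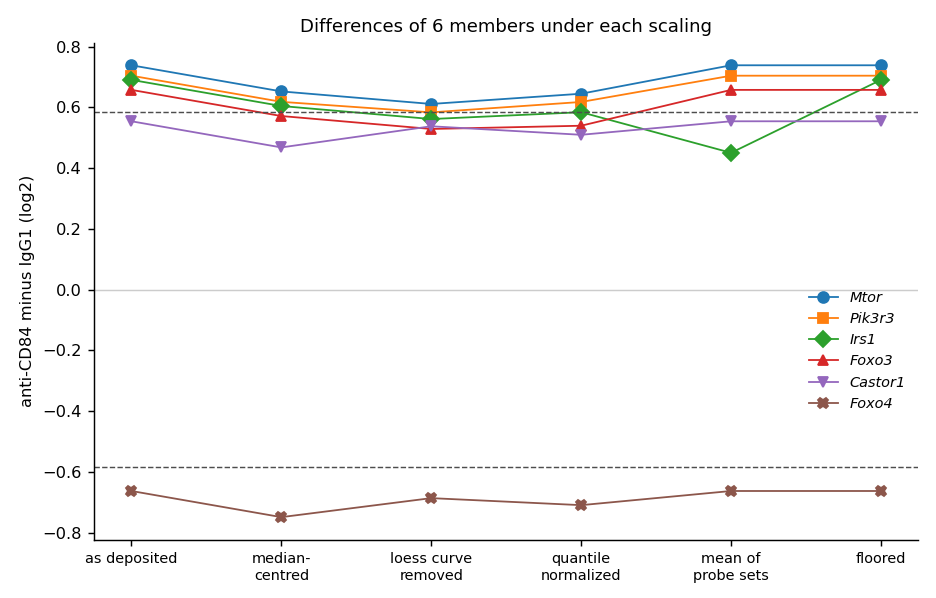
Differences (anti-CD84 minus IgG1, log2, vertical axis) of the 5 members past 1.5-fold and of Castor1 as deposited and under 5 alternatives, with dashed lines at 1.5-fold. Mtor lies above the upper line and Foxo4 below the lower line under each setting plotted, while Foxo3 falls to 0.53 with the loess curve removed and Irs1 to 0.45 as the mean of its probe sets.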

How the data were processed

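The values were taken from the table the authors deposited, in which each probe set has a log2 value for either array. RMA and Partek are the tools named, per the submitters' processing notes. Versions, settings and the genome build were not given in the sources used here. RMA includes quantile normalization and summarises probes. Dim genes had the widest differences here, with an SD of 0.62 at mean levels under 5 against 0.31 at 9 to 11. The log2 scale was inferred from the values, 1.82 to 13.8, with array medians of 4.87 (anti-CD84) and 4.88 (IgG1). These medians lie near the detection level, and the upper quartiles were 6.94 (anti-CD84) and 6.82 (IgG1). GEO's platform annotation gave 23521 of 41345 probe sets 1 symbol, 1814 several and 16010 none, and those with several were left out. A gene with more than 1 probe set (1082 of 22180) was represented by the brightest.

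Differences are anti-CD84 minus IgG1. A gene was detected when above 4.84 on at least 1 array, and was called from its deposited difference. A fold with 1 array below that level was computed from the level and written "at least". No test was possible with 1 array per group. All members were named, and of the further lists each detected gene past 1.5-fold and 4 others by size. The members and lists were chosen with earlier results of these data known. The counting step was tested on simulated data with shifts larger than any member's difference, in genes well above the detection level. That checks the code and does not bear on the calls made here. Promoters came from RefSeq (GRCm38.p6). Computations used limma 3.58.1 in R 4.3.3, and pandas 2.3.3, numpy 2.4.6 and matplotlib 3.10.9 in Python 3.11.15.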

Additional observations from a re-analysis of the deposited data

How the results depend on the processing

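With 1 array per group no replicate could be left out, and no paired analysis was possible because each group has a single array. The alternatives were median-centred differences, a loess curve removed (limma, span 0.4), quantile normalization, no detection filter, a stricter level at the 75th percentile of the whole table (6.88), both arrays above the detection level, the mean of all probe sets and values floored at the detection level. The first 3 rescale all values, and of their 96 values of single members 90 kept their side of 1.5-fold, 6 fell within it and 0 changed direction past it. Most of the 96 belong to the 27 members already within 1.5-fold, so the 90 say little about the calls. The 6 all belong to Irs1, Pik3r3 and Foxo3, which are 3 of the 4 higher members. The other 5 gave 156 values, of which 153 equal the deposited difference by construction, so they bear on counts rather than on single members. Irs1 fell within 1.5-fold with the loess curve removed (0.56), under quantile normalization (0.584) and as the mean of its probe sets (0.45). Pik3r3 did so with the loess curve removed (0.583). Foxo3 did so centred (0.57), with the loess curve removed (0.53) and under quantile normalization (0.54). The values of 0.583 and 0.584 lie just inside the limit of 0.585. A 2-fold threshold was added after seeing the data. The count of higher members was 4, and became 3 with centred differences and as the mean of all probe sets, 1 with the loess curve removed, 2 under quantile normalization and 0 at 2-fold. That of lower members was 1, and became 2 without the detection filter, which admits Rragd, and 0 at the stricter level, which leaves out Foxo4, and at 2-fold. The members' median of 0.12 became 0.0057 with the loess curve removed. Of the other pathway genes 9 were higher, which became 7 under each rescaling, and 2 were lower, which became 3 with centred differences, 1 with the loess curve removed, under quantile normalization, with both arrays above the detection level and with floored values, and 0 at the stricter level. Of the FoxO targets 8 were higher, which became 5 with centred differences and 6 with the loess curve removed, under quantile normalization and at the stricter level, and the 1 lower became 0 at the stricter level and with both arrays above the detection level. Beyond the filters, whose construction shows it, the cause was not tested. Signal near the detection level limits Castor1, Pik3cd and Foxo4 most, and nothing here separates treatment from differences between these cultures or arrays.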

Other observations

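Members were also grouped, after their values were seen, by the side on which they act. The 16 detected members that promote Akt or mTOR signalling (adaptors, catalytic PI3K, Akt, PDK1, core mTOR subunits, Rheb, Rragc and Rps6kb2) had a median difference of 0.17. Mtor and Irs1 were past 1.5-fold, 12.5% of the 16 against 10.7% of all detected genes higher. With the loess curve removed or under quantile normalization Mtor alone of the 16 was past it. The 8 detected members that restrain it (Phlpp1, Akt1s1, Deptor, Tsc1, Tsc2, Ddit4, Depdc5 and Castor1) had a median of 0.03, with 0 past 1.5-fold. Over all detected genes 10.7% were higher and 6.4% lower, and so few genes do not stand apart from these shares. Under median centring the medians of the promoting and restraining members were 0.08 and -0.05, and with the loess curve removed 0.13 and -0.09. Castor1 (0.55) and Tsc2 (0.31) were the restraining members with the highest differences. The 5 detected members that Akt or mTORC1 holds in check (Eif4ebp1, Eif4ebp2, Foxo1, Foxo3 and Foxo4) had a median of 0.05 and ran from -0.66 to 0.66. The 3 regulatory PI3K subunits were placed on none of these sides, had a median of 0.28 and ran from 0.06 to 0.70. A grouping made after the values were seen is a description and has no test.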
